A study of Mus musculus with 483 samples.

Results

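Cluster 1 is the largest of the groups into which the submitters divided single mouse cells, and the genes taken to mark it include Dll4, the endothelial Notch ligand. Its members were taken as every cell whose label gives ICGS cluster 1, which comes to 183 cells, 97 labelled Ctrl and 86 labelled as treated with aDll4, beside 300 cells with other cluster labels. ICGS is a method that groups cells by correlated genes, so the cluster itself was built on expression in these cells. Every cell was sorted as CD31+kit+CD45- from the AGM, the embryonic region of the aorta, gonads and mesonephros. What aDll4 is stands in none of the labels, and the sources used here give no age, strain or number of embryos. Both treatments share the same sort and tissue, and the labels set the cells apart by treatment, cluster and library number alone. Library numbers fall into 2 blocks, below 20000 and above 22000. Block 1 held 81 Ctrl and 73 treated cells of cluster 1, and block 2 held 16 and 13. Cluster 2 (145 cells) and cluster 3 (67 cells) served for comparison.

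In the AGM, blood stem cells arise from hemogenic cells in the lining of the aorta. Dll4 sits on the surface of arterial and sprouting endothelial cells and binds Notch receptors on neighbouring cells. A bound receptor is cut, and its inner part joins RBPJ in the nucleus to switch on targets such as the Hes and Hey repressors, Nrarp and Efnb2. Notch signalling is known for restraining sprouting and for supporting arterial fate, and in the AGM for a part in the formation of blood stem cells.

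The labels tie no cell to an embryo, an animal or a culture, so each treatment counts as 1 sample and no difference below carries a test. Levels are given as CPM, the reads of a gene per 1000000 reads assigned to genes, summed over the cells of a group, with exact Poisson intervals that cover counting error only. Ratios are log2 ratios of summed CPM with 1 CPM added. A gene counted as higher or lower where the ratio reached 0.5 or -0.5, and 15204 genes that had reads in 5% or more of all cells were measured. Cluster 1 cells held 123097 to 2172087 gene-assigned reads, with a median of 931920. A median of 7795 genes had a read per cell, against 7370 in cluster 2 and 5937 in cluster 3, and with each cell thinned to 100000 reads the medians were 6090, 5752 and 4309. Within each block, sets of 96 consecutive library numbers are called runs here: runs 1 to 4 in block 1 and runs 5 and 6 in block 2, each with cells of both treatments. The labels do not name these runs, whether they share embryos is not known, and they are not replicates. Run 6 held 5 Ctrl and 5 treated cells of cluster 1. Sex differed between the treatments. With 10 reads as the limit, 32 of 81 Ctrl cells of block 1 were positive for Y-linked genes and 43 for Xist, while 70 of 73 treated cells were Y-positive and 0 were Xist-positive. In block 2, 6 of 16 Ctrl cells were Y-positive and 10 Xist-positive, against 0 and 12 of 13 treated cells. Values within 1 sex (Y-positive cells in block 1, Xist-positive cells in block 2) are therefore given beside the main results of treatment.

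The first comparison asked what sets Ctrl cells of cluster 1 apart from Ctrl cells of clusters 2 and 3. The mix of sexes differed here too. In cluster 2, 33 of 60 Ctrl cells of block 1 were Y-positive and 24 Xist-positive, and 7 and 4 of 13 in block 2. In cluster 3 these were 8 and 4 of 13, then 6 and 7 of 18. The clusters were not compared within 1 sex. The labelled cell type of every cell is hematopoietic stem cell, yet the cells of cluster 1 carried endothelial transcripts. Cldn5, a tight junction protein of endothelium, stood at 2026 CPM in block 1 and 1548 CPM in block 2, and was read in all 97 Ctrl cells. Pecam1, which encodes the sorted antigen CD31, stood at 1092 and 1323 CPM, and Kit, the other sorted receptor, at 408 and 298 CPM. Cdh5, the cadherin of endothelial junctions, stood at 367 and 397 CPM. Ptprc, which encodes CD45, was read in 1 of the 97 Ctrl cells. Runx1, the transcription factor required for the endothelial to hematopoietic step, stood at 0.125 and 0.506 CPM, and Gfi1, which acts downstream of it, had 0 reads, so that its level lay under the floor of 3 reads, 0.0418 CPM in block 1 and 0.127 CPM in block 2. Runx1 and Gfi1 were thus near 0, while other genes of the list of hemogenic transition factors were not, the 14 genes summing to 637 and 610 CPM.

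Dll4 (ENSMUSG00000027314, chromosome 2, 119325784 to 119335962 on mm10, plus strand) summed to 655 CPM (648.9 to 660.7) in Ctrl cells of cluster 1 in block 1 and to 432 CPM (423.9 to 440.7) in block 2. Cluster 2 stood at 336 and 252 CPM, and cluster 3 at 48.5 and 76.4 CPM. In single cells of cluster 1 the level ran from 1.89 through a median of 489 to 4501 CPM in block 1, and from 0 through 326 to 1086 CPM in block 2. The median cell of cluster 2 held 220 and 170 CPM, and that of cluster 3 held 1.55 and 0 CPM. A Dll4 read was found in 100% of the Ctrl cells of cluster 1 in block 1 (97.5% after thinning), in 90% of those of cluster 2 (83.3%) and in 76.9% of those of cluster 3 (46.2%). The ranges of the 3 clusters overlapped, with Dll4-poor cells in cluster 1 and Dll4-rich cells in clusters 2 and 3.

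Of the other markers, Igfbp3, Trp53i11 and Tbx1 followed the same order in both blocks. Igfbp3, a secreted binding protein of insulin-like growth factors, stood at 2115 and 1394 CPM in cluster 1, at 1110 and 1211 CPM in cluster 2 and at 268 and 223 CPM in cluster 3. Trp53i11, a p53-induced membrane protein, stood at 832 and 747 CPM against 343 and 410 CPM in cluster 2 and 126 and 151 CPM in cluster 3. Tbx1, a T-box transcription factor, stood at 184 and 245 CPM against 94.6 and 95.6 CPM, then 44.6 and 55.4 CPM. Arhgef28, a guanine nucleotide exchange factor, stood at 170 and 111 CPM against 78.1 and 101 CPM, then 88.2 and 5.70 CPM, so that in block 1 cluster 3 lay above cluster 2. For Apold1, an endothelial immediate early gene, the 401 CPM in block 1 lay below the 428 CPM of cluster 2, while in block 2 it stood at 342 against 192 CPM. Of the 6 markers, 3 reached a ratio of 0.5 against both clusters in both blocks, where 4.08% of all measured genes did. These markers were named from these cells, so the count is a description and supports nothing.

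**Figure D1:**
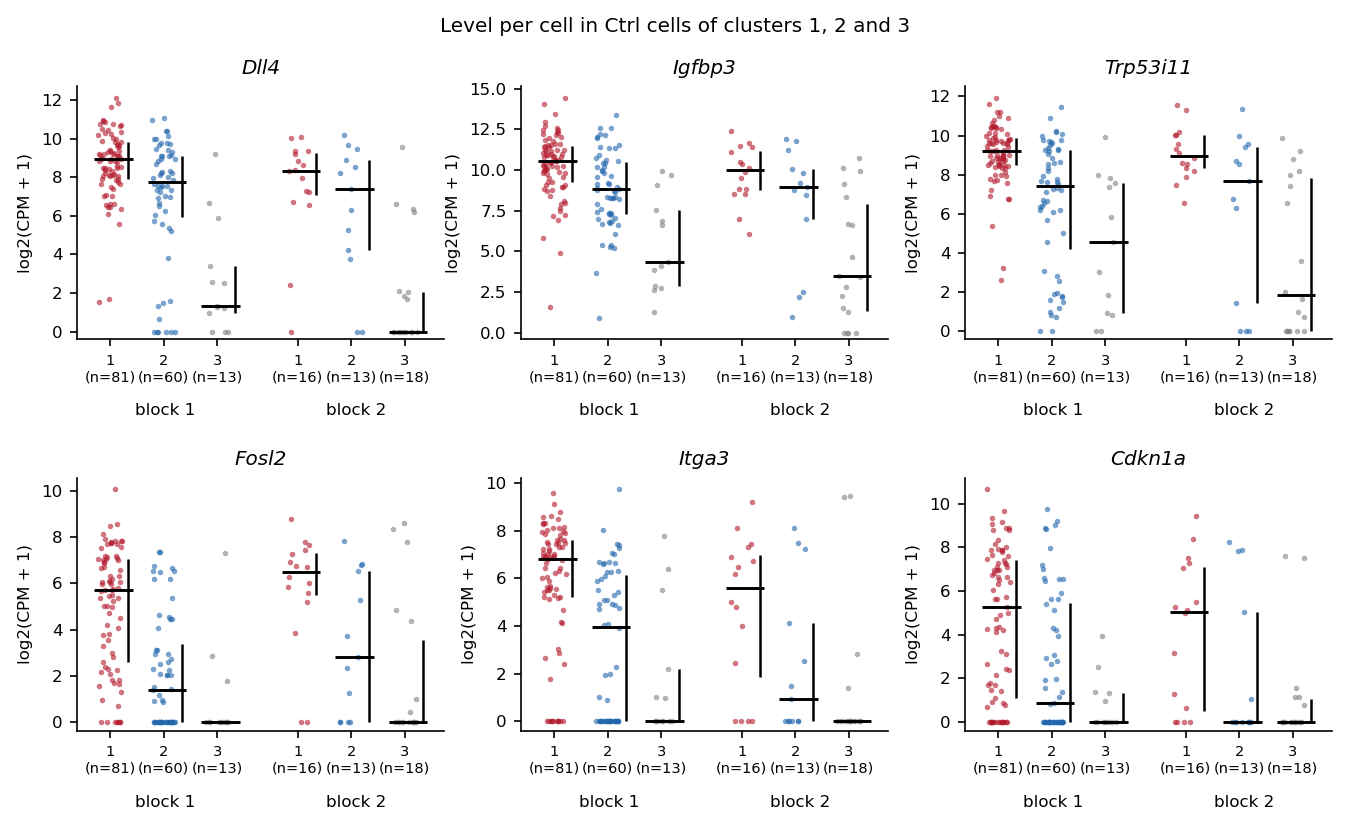
Level per Ctrl cell, as log2(CPM + 1), of 6 genes in clusters 1, 2 and 3 (horizontal axis, with the number of cells) in block 1 and block 2. Points are cells, horizontal bars medians, vertical bars the quartiles. Cluster 1 has the highest median of each gene in both blocks, and single cells of the 3 clusters overlap.

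Over all measured genes, 620 were higher in cluster 1 than in both other clusters in both blocks, and 188 were lower (1.24%). Because the clusters were built on these genes, all of these counts are descriptions. Among the named genes that stood higher (12 were taken, by the size of the difference in mean log2(CPM + 1) among genes whose difference agreed between blocks and clusters), several act at the membrane or in transcription. Fosl2, a subunit of the AP-1 transcription factor, stood at 90.5 and 131 CPM, against 20.4 and 48.7 CPM in cluster 2 and 15.9 and 38.5 CPM in cluster 3. Its median cell held 51.1 and 91 CPM in cluster 1, and 1.61 and 5.92 CPM in cluster 2. Itga3, the integrin alpha chain that binds laminins, stood at 132 and 114 CPM against 48.1 and 56.6 CPM in cluster 2. Cyp26b1, an enzyme that breaks down retinoic acid, stood at 136 and 185 CPM against 33.9 and 52.4 CPM in cluster 2 and 4.00 and 45.9 CPM in cluster 3. Nostrin, which binds the endothelial nitric oxide synthase, stood at 87.3 and 94.1 CPM against 40.6 and 42.7 CPM in cluster 2.

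Cdkn1a, the p53 target that encodes the cyclin-dependent kinase inhibitor p21, stood at 160 and 130 CPM in cluster 1, at 72.4 and 53.2 CPM in cluster 2 and at 1.73 and 18.5 CPM in cluster 3. A read was present in 80.2% of its cells in block 1 (64.2% after thinning). Fam102a reached 198 and 246 CPM against 74.4 and 141 CPM in cluster 2, and Acer2, an alkaline ceramidase, reached 255 and 287 CPM against 84.6 and 247 CPM. Kcnq1, a potassium channel, reached 82.7 and 101 CPM against 29.9 and 41.2 CPM, and Stx1a, a syntaxin of vesicle fusion, reached 39.2 and 54.2 CPM against 11.2 and 6.65 CPM. Grrp1 reached 143 and 172 CPM against 69 and 50.8 CPM. Ccnf, a cyclin that is highest in G2, stood at 160 and 240 CPM against 47.5 and 54.9 CPM in cluster 2, but against 150 CPM in cluster 3 of block 1 the difference was small.

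The genes that stood lower were fewer, and 8 were named. Rrs1, needed to mature the large ribosomal subunit, stood at 24.5 and 9.83 CPM in cluster 1, at 42.8 and 42.7 CPM in cluster 2 and at 28.4 and 76.8 CPM in cluster 3. Ftsj3, which processes ribosomal RNA, stood at 30.9 and 2.19 CPM against 57 and 83.6 CPM in cluster 2. Zfpm2, a partner of GATA factors, stood at 8.33 and 2.87 CPM against 26.8 and 38 CPM, and Flrt2, a membrane protein of cell guidance, at 29.4 and 39.1 CPM against 81.8 and 90.4 CPM. The others were Gpatch4, Naa50, Pphln1 and Hars2, whose log2 ratios against cluster 2 were -0.87 and -2.36, -0.77 and -0.49, -0.40 and -1.57, and -0.75 and -2.14.

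The list of 18 genes of G2 and M phase had, apart from the markers in block 1, the highest median of the lists against cluster 2. These genes build the spindle and drive chromosome separation. Of the 18, 18 were above 0 against cluster 2 in block 1 and 17 in block 2, with medians of 0.84 and 1.36, where 29.7% of all genes were above 0 in both blocks. Of the 18, 15 reached 0.5 in both blocks, against 8.44% of all genes. Against cluster 3, 15 and 16 of 18 were above 0, with medians of 0.85 and 1.14, as were 8677 and 7767 of all genes. In both blocks 11 of 18 reached 0.5, against 17.4% of all genes. The medians of all measured genes were at most 0.15 in the 4 contrasts. Plk1, a mitotic kinase, stood at 261 and 200 CPM in cluster 1, at 129 and 16.6 CPM in cluster 2 and at 54.8 and 100 CPM in cluster 3. Aurka, another mitotic kinase, stood at 155 and 195 CPM against 92.5 and 18.6 CPM in cluster 2. Hmmr, a spindle protein, stood at 100.1 and 112 CPM against 52 and 15.7 CPM, and Cdc20, which activates the anaphase-promoting complex, at 268 and 206 CPM against 156 and 86.6 CPM. Per cell, the mean log2(CPM + 1) over the list had a median of 7.04 in block 1 (lowest 0.77, highest 9.19) and 4.79 in block 2 (0.57 to 9.03), against 4.13 and 3.66 in cluster 2. In block 2 no Ctrl cell of cluster 1 scored between 2.90 and 6.68, so its median lay in a gap. By this score the cells of cluster 1 spanned from low to high levels of the list taken as a whole.

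The S phase list did not share this pattern. Of its 18 genes, 16 and 13 were below 0 against cluster 2, with medians of -0.39 and -0.48. Of all 15204 measured genes, 7524 and 6841 were below 0 there. Against cluster 3, 11 and 16 were below 0, with medians of -0.26 and -0.43, as were 6507 and 7117 of all genes. In both blocks 3 of 18 reached -0.5 against cluster 2 and 3 against cluster 3, where 4.22% and 9.2% of all genes did. Mcm6, a subunit of the replicative helicase, stood at 230 and 419 CPM against 367 and 487 CPM in cluster 2, and Ccne2, the cyclin of S phase entry, at 11.8 and 9.70 CPM against 26.6 and 32.9 CPM. Mcm7 stood the other way, at 123 and 171 CPM against 106 and 87.5 CPM, as did Cdc45, which loads with the helicase, at 91.3 and 93.5 CPM against 73.1 and 37.2 CPM. The list of MYC and ribosome biogenesis genes was lower in 12 of 15 members in each of the 4 contrasts, with medians of -0.48 and -0.45 against cluster 2 and -0.78 and -1.54 against cluster 3. Gnl3, the nucleolar protein nucleostemin, stood at 56.9 and 39.5 CPM against 114 and 99.4 CPM in cluster 2 and 211 and 141 CPM in cluster 3. Dkc1, the pseudouridine synthase of small nucleolar particles, stood at 58.9 and 40.4 CPM against 86.6 and 119 CPM, and Nop58, another protein of those particles, at 91.5 and 82.4 CPM against 155 and 124 CPM.

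Tip cell and arterial genes stood further above cluster 3 than above cluster 2. By their medians, venous genes lay below cluster 2 in both blocks, and above cluster 3 in block 2 only. Tip cell genes, which mark the leading cells of sprouts, were above 0 against cluster 2 in 11 and 12 of 15 members, with medians of 0.41 and 0.42. Against cluster 3, 15 and 12 of 15 were, with medians of 2.16 and 1.47. Of all 15204 measured genes, 7674 and 7979 were above 0 against cluster 2, and 8677 and 7767 against cluster 3. Trp53i11 and Igfbp3 belong to both the marker list and this list. Nid2, a basement membrane linker, stood at 365 and 388 CPM against 275 and 164 CPM in cluster 2 and 17.6 and 94.5 CPM in cluster 3, and Pdgfb, a growth factor that recruits mural cells, at 95.9 and 81.4 CPM against 96.8 and 64 CPM, then 0.909 and 18 CPM. The 14 genes of basement membrane and matrix had medians of 0.30 and 0.40 against cluster 2 and of 0.89 and 0.97 against cluster 3. The 17 measured arterial genes of 18 had medians of -0.05 and 0.22 against cluster 2 and of 1.98 and 0.71 against cluster 3, and the 9 venous genes had medians of -0.28 and -0.18, then -0.17 and 0.42. Stab2, a scavenger receptor of venous and sinusoidal endothelium, stood at 15.1 and 3.46 CPM in cluster 1 and at 66.3 and 80.5 CPM in cluster 2. The 17 pan-endothelial genes had medians of 0.12 and 0.12 against cluster 2 and 0.80 and 0.52 against cluster 3, with Flt1, a decoy receptor for VEGF, at 1237 and 962 CPM against 536 and 864 CPM in cluster 2.

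Within the Notch pathway, the ligand stood apart from the targets in the comparison with cluster 2. Of the 24 ligands, receptors and modifiers, 19 and 14 were above 0 against cluster 2, with medians of 0.31 and 0.15. Against cluster 3, 16 and 18 were, with medians of 0.53 and 0.99. Of all 15204 measured genes, 7674 and 7979 were above 0 against cluster 2, and 8677 and 7767 against cluster 3. Notch1, the receptor, stood at 355 and 200 CPM against 282 and 155 CPM in cluster 2, and Notch4, the endothelial receptor, at 143 and 147 CPM against 130 and 59.3 CPM. Per kilobase of exon, Dll4 stood at 170 and 112 CPM in cluster 1, Notch1 at 25 and 14 CPM, Notch4 at 17.8 and 18.3 CPM, and Jag1, another Notch ligand, at 7.11 and 5.54 CPM, so the transcript of Dll4 was the most abundant of these 4 in both blocks. The 6 measured target genes of 9 had medians of 0.04 and 0.08 against cluster 2 and of 1.91 and 0.33 against cluster 3. In all 4 contrasts 0 of 6 reached 0.5. As 4.08% of all genes did, nothing is drawn from that count. Hes1, a repressor under Notch control, stood at 111 and 102 CPM in cluster 1 and at 97.4 and 171 CPM in cluster 2. Hey1 stood at 308 and 115 CPM against 334 and 98.7 CPM, and Efnb2, the arterial ephrin ligand, at 75.8 and 74.2 CPM against 65.8 and 77.6 CPM. By the list medians, the higher Dll4 of cluster 1 was thus not paired with clearly higher levels of these targets relative to cluster 2.

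**Figure D2:**
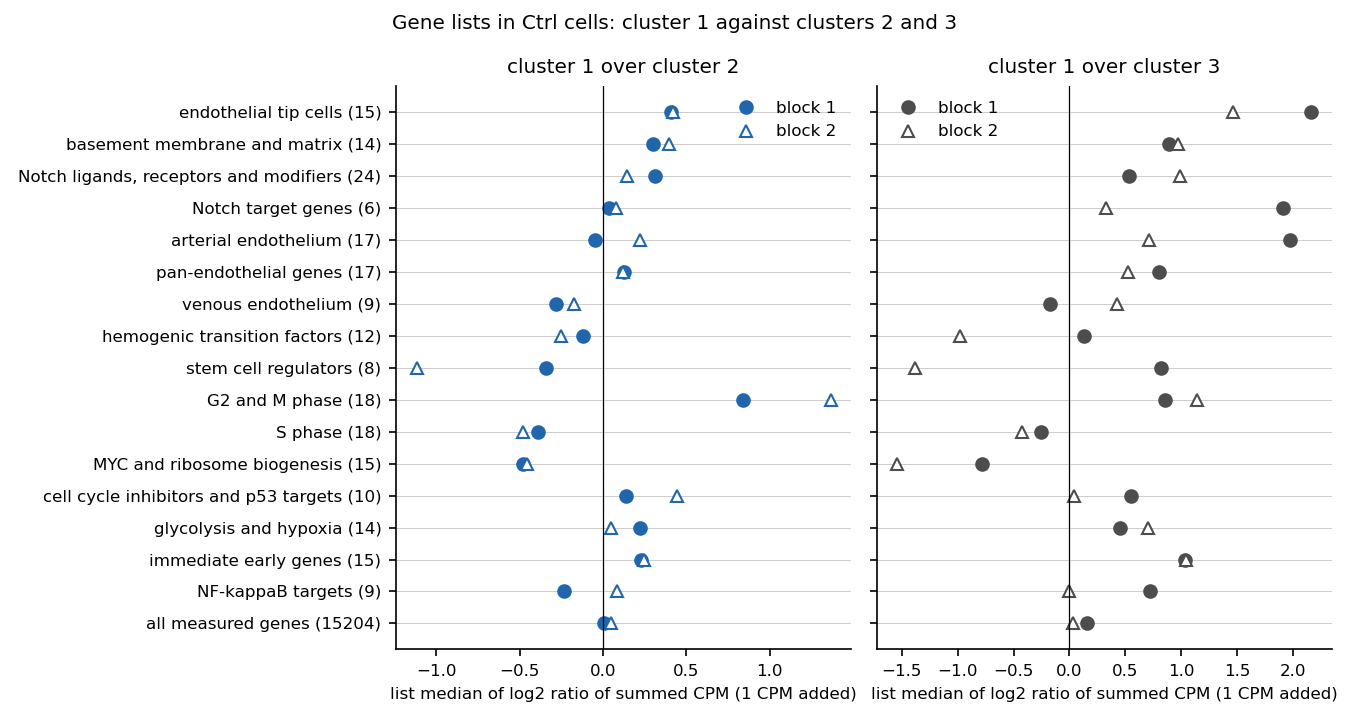
Median log2 ratio of summed CPM (1 CPM added), Ctrl cells of cluster 1 over cluster 2 (left) and over cluster 3 (right), for gene lists and all measured genes, with the number of measured genes in brackets. Filled circles are block 1 and open triangles block 2. G2 and M phase genes lie at 0.84 and 1.36 over cluster 2, MYC and ribosome biogenesis genes lie below 0 in all 4 contrasts, and Notch targets lie near 0 over cluster 2.

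Further lists gave smaller or less even differences. Glycolysis and hypoxia genes had medians of 0.22 and 0.05 against cluster 2, although Slc2a1, the glucose transporter GLUT1, stood at 3336 and 3285 CPM against 1544 and 2376 CPM in cluster 2 and 570 and 928 CPM in cluster 3. The 12 measured hemogenic transition factors had medians of -0.12 and -0.25 against cluster 2, and Runx1 itself stood at 2.68 and 54.3 CPM in cluster 2 and at 13.4 and 66.6 CPM in cluster 3, above its level in cluster 1. Gata2, another factor of that transition, stood at 17.2 and 92.7 CPM in cluster 1 against 22 and 112 CPM in cluster 2. Immediate early genes had medians of 0.23 and 0.24 against cluster 2 and of 1.04 and 1.05 against cluster 3.

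Markers of most other cell types were low in cluster 1, and pan-hematopoietic and germ cell genes were the highest of them. In the order Ctrl block 1, treated block 1, Ctrl block 2 and treated block 2, the summed level was 14.7, 9.71, 14 and 12.3 CPM over 10 erythroid genes. It was 10.5, 4.96, 8.39 and 6.48 CPM over 7 megakaryocyte genes, and it ranged from 0 to 2.34 CPM over 8 myeloid genes, with C1qa at 0. Mesenchyme and smooth muscle genes summed to 20.9, 16.7, 81.3 and 58.2 CPM, neural genes to 0.42 to 18.3 CPM, and genes of mesonephric and gonadal epithelium to 3.36, 4.24, 20 and 64.2 CPM, the last mostly Krt18, with Cdh1 at 0. Germ cell genes summed to between 82.9 and 100.5 CPM, nearly all of it Prdm1, with Pou5f1 and Dazl at 0. The 11 pan-hematopoietic genes summed to 415, 329, 395 and 523 CPM, led by Lcp1 and Laptm5, against 439 and 421 CPM in Ctrl cells of cluster 2. The part of these transcripts in the differences by treatment was not tested.

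Dll4 varied widely among the cells of cluster 1. Among 6571 genes, 13 had a Spearman correlation above 0.4 with Dll4 in both blocks of Ctrl cells (81 and 16 cells). The first 6 were Igfbp3 (0.55 and 0.64), Nid2 (0.51 and 0.56), Pecam1 (0.48 and 0.48), Sparc (0.47 and 0.68), a matrix glycoprotein, Col4a1 (0.47 and 0.45), a chain of basement membrane collagen, and St8sia4 (0.45 and 0.65), a polysialyltransferase. Taken as list scores without Dll4, tip cell genes followed it at 0.67 and 0.57, basement membrane genes at 0.61 and 0.44, Notch targets at 0.46 and 0.47 and arterial genes at 0.59 and 0.29. Venous genes ran against it at -0.56 and -0.39, and G2 and M phase genes at -0.20 and -0.64. The cells of a treatment share libraries and tissue, and Dll4 related to the number of gene-assigned reads at -0.13 and 0.36, so these values are descriptions across cells.

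The second comparison asked how aDll4-treated cells of cluster 1 differed from Ctrl cells of the same cluster. It holds only for cells that were still assigned to cluster 1, since treated and Ctrl cells were clustered together. In block 1, 11% of all measured genes reached 0.5 and 12.8% reached -0.5, and in block 2, with fewer cells, 19.4% and 30.8% did. Both blocks together gave 461 genes that were higher in treated cells (3.03%) and 778 that were lower (5.12%), while 22.6% of all genes were above 0 in both blocks and 27.5% below. The medians over all genes were 0.01 and -0.07.

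The transcript of Dll4 itself differed between the blocks. In block 1 it stood at 655 CPM in Ctrl and at 291 CPM (286.9 to 295.3) in treated cells, a log2 ratio of -1.17. Single treated cells ran from 0.711 through a median of 240 to 1678 CPM, so the treated cells reached neither the highest Ctrl values nor the Ctrl median of 489 CPM in their middle, while the ranges overlapped. The ratio was below 0 in each of the 4 runs, from -1.46 to -0.67, and it was -1.31 among Y-positive cells. In block 2 Dll4 stood at 432 CPM among Ctrl and at 463 CPM (453.2 to 473.8) among treated cells, a ratio of 0.10, with -0.09 in run 5 and 0.74 in run 6. Cluster 2 gave ratios of -0.69 and -0.84 and cluster 3 gave -1.35 and -0.36, and the differences between clusters were not tested. Of the other markers, Arhgef28 was higher in treated cells in both blocks (170 to 235 CPM and 111 to 204 CPM) and in 6 of 6 runs, while Igfbp3 stood at 2115 against 1587 CPM and at 1394 against 1061 CPM. Trp53i11 stood at 832 against 789 CPM and 747 against 494 CPM, Tbx1 at 184 against 172 CPM and 245 against 122 CPM, and Apold1 at 401 against 406 CPM and 342 against 280 CPM.

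Other ligands and receptors of the pathway also depended on the block. Jag1 stood at 41.5 CPM among Ctrl and at 13.5 CPM among treated cells of block 1, with all 4 runs between -2.01 and -1.32, but at 32.3 and 32.4 CPM in block 2. Notch1 stood at 355 and 198 CPM in block 1, with per-cell medians of 295 and 192 CPM, and at 200 and 225 CPM in block 2. Notch4 stood at 143 and 123 CPM, then at 147 and 81.9 CPM. Mfng, a glycosyltransferase that tunes Notch receptors toward Delta ligands, was higher in both blocks, at 232 and 271 CPM and at 215 and 315 CPM, with ratios of 0.22 and 0.55. Jag2 had ratios of 0.37 and -0.85, and in block 2 the sign rested on single cells and runs: without the highest cell of each group the ratio was 0.06, and run 6 alone gave 4.66. Over the 24 genes of this list the medians were -0.17 and 0.06, with 13 and 10 members below 0. Of all genes, 49.3% and 54.6% were.

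Notch target genes stood lower in treated cells of block 1, while in block 2 the list was mixed and its sum was higher. Of the 6 measured targets, 5 were below 0 in block 1 and 4 in block 2, where 49.3% and 54.6% of all genes were. The medians were -0.82 and -0.41, and all 6 runs had a median below 0, from -1.70 to -0.27. Without the highest cell of each gene the medians were -0.79 and -0.11. The summed level of the list went from 524 CPM among Ctrl to 194 CPM among treated cells of block 1, and from 353 to 490.4 CPM in block 2, where the per-cell sums had medians of 243 and 349 CPM. In both blocks 3 of 6 reached -0.5 (Nrarp, Efnb2 and Gja5), against 5.12% of all genes, and 1 reached 0.5 (Hey2), against 3.03%. Within 1 sex the medians were -0.54 and -0.65. In cluster 2 the list had medians of -1.03 and 0.14, and in cluster 3 of 0.51 and -1.05. The difference between clusters was not tested. Nrarp, a feedback inhibitor of Notch, stood at 17.7 CPM among Ctrl and at 11.2 CPM among treated cells of block 1, with per-cell medians of 12.5 and 6.31 CPM. In block 2 it stood at 12.2 and 3.71 CPM, with medians of 8.50 and 0 CPM. A read of Nrarp was present in 75.3% and 65.8% of the cells of block 1 (60.5% and 46.6% after thinning) and in 75% and 30.8% of those of block 2 (43.8% and 7.69%). Its ratio was below 0 in 6 of 6 runs, between -3.19 and -0.07, and the 2 groups overlapped in every block.

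Efnb2 stood at 75.8 and 39 CPM in block 1 and at 74.2 and 50.6 CPM in block 2, with ratios of -0.94 and -0.54; in block 2, run 5 alone gave 0.15. Hes1 stood at 111 and 68 CPM, with medians per cell of 65.3 and 52.9 CPM, and at 102 and 84.1 CPM, with medians of 54.6 and 70.2 CPM. Hey1 split by block: it stood at 308 and 66.2 CPM in block 1, with per-cell medians of 150 and 2.54 CPM, and at 115 and 344 CPM in block 2, where 1 treated cell reached 2105 CPM and run 6 alone gave -0.16. Gja5, the arterial connexin 40, stood at 5.92 and 2.10 CPM in block 1, and in block 2 at 45.1 CPM in Ctrl, from 4 of 16 cells, and 0 reads in treated cells, under a floor of 3 reads or 0.177 CPM. Hey2 was read in few cells, 7 of 81 and 5 of 73 in block 1, and its ratio of 0.62 became -0.11 without run 2. In block 2 its ratio of 0.78 became -2.64 without run 6.

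**Figure D3:**
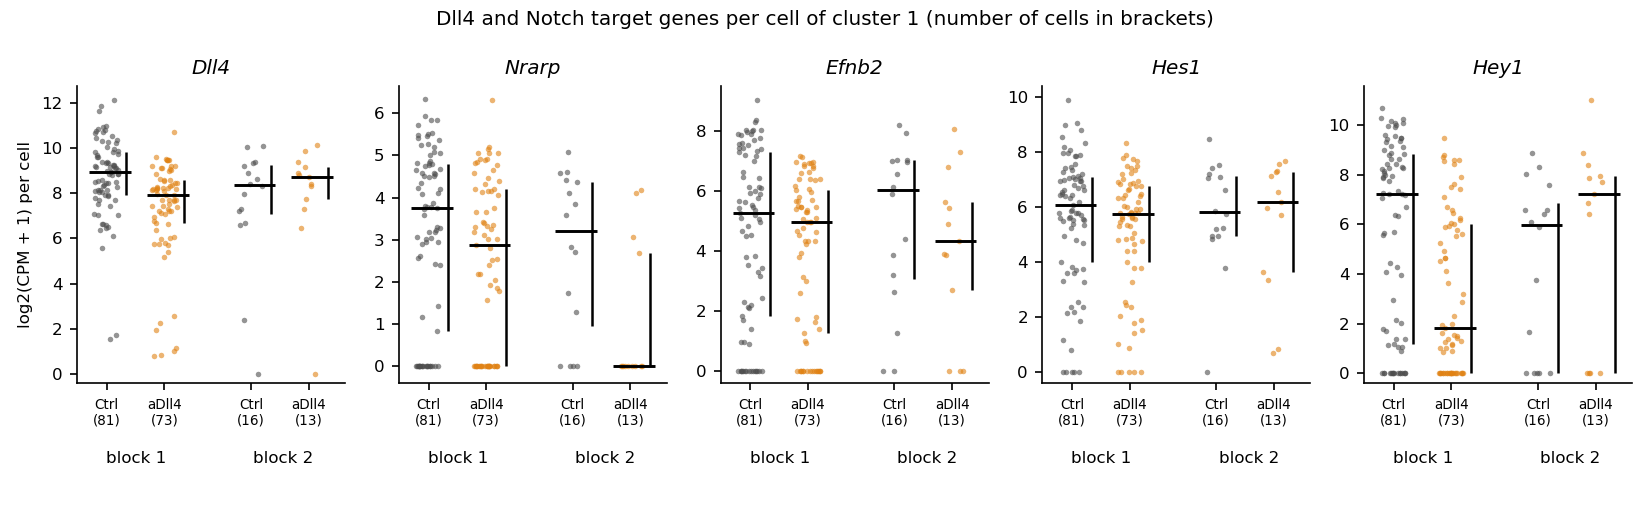
Level per cell of cluster 1, as log2(CPM + 1), of Dll4 and 4 Notch target genes in Ctrl (grey) and aDll4-treated (orange) cells of block 1 and block 2, with the number of cells in brackets. Points are cells, horizontal bars medians, vertical bars the quartiles. In block 1 the treated median is lower for each gene, and in block 2 it is lower for Nrarp and Efnb2 and higher for Dll4, Hes1 and Hey1.

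Arterial genes as a list had medians of -0.47 and -0.01, with 11 and 9 of 17 members below 0, where 49.3% and 54.6% of all genes were. In both blocks 5 of 17 reached -0.5, against 5.12% of all genes. Within 1 sex the medians were -0.25 and -0.08. Gja4, the arterial connexin 37, stood at 87.5 and 23.8 CPM in block 1 and at 111 and 60.4 CPM in block 2, although it was read in 37% and 31.5% of cells, then in 31.2% and 38.5%, and after thinning in 24.7% and 16.4%, then 25% and 30.8%. Unc5b, a netrin receptor of arterial and tip cells, stood at 127 and 51.8 CPM, then at 45.1 and 27.3 CPM. Mecom, a transcription factor of arterial and blood stem cell programs, stood at 62.5 and 41 CPM, then at 41.1 and 23.9 CPM; in block 2 its ratio of -0.76 became 0.06 without the highest cell of each group. Venous genes had medians of -0.10 and -0.12, tip cell genes of -0.08 and 0.07, and pan-endothelial genes of -0.12 and 0.13. Of the 17 pan-endothelial genes, 13 and 7 were below 0. Among tip cell genes, Apln, the apelin ligand of sprouting cells, was higher in both blocks, at 69 and 181 CPM and at 55.1 and 129 CPM. Pecam1 stood at 1092 and 1030 CPM, then at 1323 and 1445 CPM, Cdh5 at 367 and 369 CPM, then at 397 and 500.4 CPM, and Kit at 408 and 403 CPM, then at 298 and 287 CPM. Treated cells of cluster 1 thus held Pecam1, Cdh5 and Kit at levels near those of Ctrl cells, while Gja4, Unc5b and Apln differed more. Pecam1 and Kit encode antigens used in the sort.

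The G2 and M phase list was lower in treated cells in all of its members. All 18 of 18 were below 0 in block 1 and all 18 in block 2, where 49.3% and 54.6% of all genes were (27.5% in both), with medians of -0.32 and -1.17. In block 1, 5 of 18 reached -0.5, against 12.8% of all genes, and in both blocks 4 of 18 did, against 5.12%. Each of the 6 runs had a median below 0, between -1.08 and -0.06, and within 1 sex it was -0.42 and -1.58, again with 18 of 18 below 0. These genes rise and fall together in a cycling cell, so the count is not one of independent genes. Cdc20 stood at 268 CPM among Ctrl and at 220 CPM among treated cells of block 1, and at 206 and 37.2 CPM in block 2, where the median cell held 49 and 0.92 CPM. Plk1 stood at 261 and 186 CPM, then at 200 and 53.3 CPM, and Hmmr at 100.1 and 66.9 CPM, then at 112 and 22 CPM. Cenpf, a kinetochore protein, stood at 186 and 130 CPM, then at 177 and 79.4 CPM, and Kif11, the motor that separates spindle poles, at 122 and 76.9 CPM, then at 89.6 and 34.7 CPM. Plk1 and Cdc20 were above 0 in run 3, at 0.24 and 0.63. In clusters 2 and 3 the medians of the list were 0.19 and 1.14, then -0.02 and 0.67, and the difference between clusters was not tested. Scores per cell covered the same span in both treatments, from 0.77 through a median of 7.04 to 9.19 in Ctrl cells and from 0.63 through 6.49 to 9.15 in treated cells of block 1, with thinned medians of 6.81 and 6.32. In block 2 the medians were 4.79 and 3.15, and 4.65 and 2.94 after thinning. No Ctrl cell of block 2 scored between 2.90 and 6.68 before thinning, so the Ctrl median lay in a gap.

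The promoters of G2 and M phase genes often hold a short element called CHR, through which they are held down outside those phases. Their sequences are shown because these genes stood higher in cluster 1 and lower in treated cells together. In the RefSeq promoter windows of GRCm38.p6, 250 bases before the start site were searched on both strands for TTTGAA, which reads TTCAAA on the other strand, or TTCGAA. A match was present in 7 of the 15 list genes with a window (of 18), and in 19.6% of 27025 genes. The stretches below end at the start site, run 5′ to 3′ along the gene and show the matches in capitals. They cover chr4:118437344-118437423 (minus strand) for Cdc20, chr2:164769849-164769928 (plus) for Ube2c, chr19:37376302-37376381 (plus) for Kif11 and chr10:69352913-69353012 (minus) for Cdk1.
Cdc20: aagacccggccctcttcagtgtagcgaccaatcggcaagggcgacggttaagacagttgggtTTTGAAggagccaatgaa
Ube2c: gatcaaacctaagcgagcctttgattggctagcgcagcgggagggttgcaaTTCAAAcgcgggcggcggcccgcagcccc
Kif11: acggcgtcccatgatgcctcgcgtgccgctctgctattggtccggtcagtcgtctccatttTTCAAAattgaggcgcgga
Cdk1: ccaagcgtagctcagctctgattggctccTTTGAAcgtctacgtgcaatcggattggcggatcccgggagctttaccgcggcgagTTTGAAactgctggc
A match is a description of letters and not a bound site.

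Beside the lower mitotic genes, Cdkn1a was higher in treated cells. It stood at 160 and 228 CPM in block 1, with per-cell medians of 37.9 and 75 CPM, and at 130 and 684 CPM in block 2, with medians of 32.4 and 331 CPM. The ratios of 0.51 and 2.39 were above 0 in 6 of 6 runs, between 0.18 and 3.33, and were 0.21 and 3.96 within 1 sex. In mean log2(CPM + 1), Cdkn1a was higher in 5 of 6 runs, with differences of 0.99 and 3.55. Within 1 sex these differences were -0.02 and 4.55. The 10 measured inhibitors and p53 targets as a list had medians of 0.16 and -0.08, with 7 of 10 above 0 in block 1 and 3 of 10 in block 2. Cdkn1c, the inhibitor p57, stood at 165 and 108 CPM, then at 303 and 183 CPM. S phase genes split by block, with 15 of 18 above 0 in block 1 (median 0.23) and 13 of 18 below 0 in block 2 (median -0.57). MYC and ribosome biogenesis genes were above 0 in 13 of 15 members in block 1 (median 0.24) and in 7 of 15 in block 2 (median -0.02). Beside these 3 lists, 50.7% and 43.1% of all genes were above 0 in blocks 1 and 2, and 49.3% and 54.6% below. Gnl3 was higher in both blocks, at 56.9 and 109 CPM and at 39.5 and 96.5 CPM, although run 6 alone gave -0.51. Mycn, a MYC family transcription factor, stood at 70.5 and 209 CPM, then at 52 and 78.3 CPM, and in block 2 run 6 alone gave -1.40.

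NF-kappaB targets were higher in treated cells of block 1 and not of block 2. NF-kappaB is a transcription factor family that inflammatory signals release from inhibitors such as the product of Nfkbia. In block 1 all 9 measured members of 11 were above 0, where 50.7% of all genes were, and the median was 1.55. Of the 9, 8 reached 0.5, against 11% of all genes. In block 2, 3 were above 0 and 5 below, where 43.1% and 54.6% of all genes were. There 0 reached 0.5 and 4 reached -0.5, against 19.4% and 30.8% of all genes. The median there was -0.28, so the blocks differed in direction and the difference was not tested. Runs 1 to 4 gave medians of 0.36, 1.81, 1.4 and 1.05, and runs 5 and 6 gave -0.02 and -0.95. Within 1 sex the medians were 2.00 and -0.26. Nfkbia stood at 382 and 705 CPM in block 1, with per-cell medians of 202 and 526 CPM, and at 380 and 473 CPM in block 2, with medians of 227 and 214 CPM. Birc3, an inhibitor of apoptosis, stood at 7.12 and 55.5 CPM in block 1, read in 22.2% and 63% of cells (13.6% and 52.1% after thinning), and at 16.8 and 9.13 CPM in block 2. Tnfaip3, the feedback inhibitor A20, stood at 9.57 and 29.9 CPM, then at 2.70 and 3.53 CPM, and Nfkb1, the p105 subunit, at 72.7 and 82.2 CPM, then at 59.1 and 15 CPM. Named after their values were seen, Icam1, a leukocyte adhesion molecule, stood at 132 and 409 CPM, then at 232 and 262 CPM, and Relb and Nfkb2, subunits of the noncanonical pathway, at 30.8 and 93.8 CPM and at 45 and 116 CPM in block 1, and at 53.6 and 31.9 CPM and at 63.9 and 52.5 CPM in block 2. Scores per cell had medians of 2.69 and 4.43 in block 1 (2.54 and 4.35 after thinning) and of 2.82 and 2.32 in block 2 (2.61 and 2.10). In cluster 2 the list had medians of 0.16 and 0.21, in cluster 3 of 0.21 and 1.28, without a test of the difference.

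**Figure D4:**
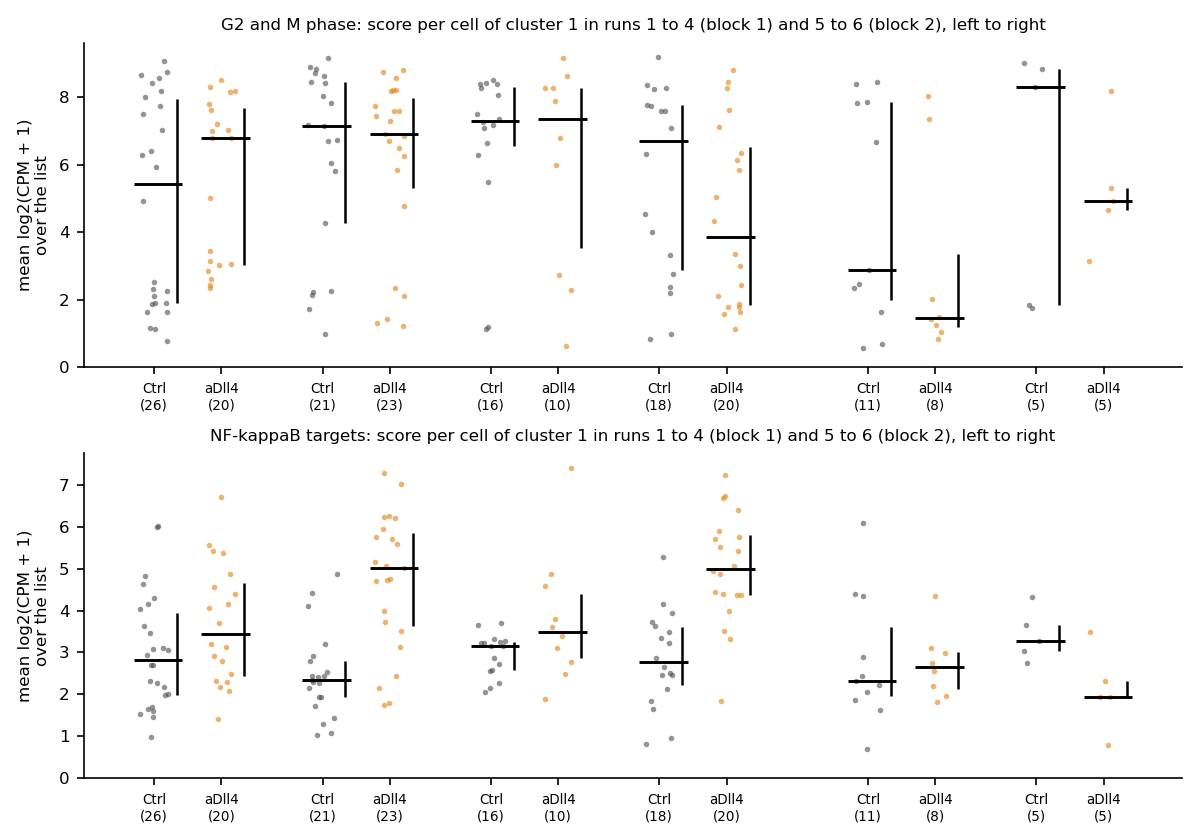
Score per cell of cluster 1 (mean log2(CPM + 1) over the list) for G2 and M phase genes (top) and NF-kappaB targets (bottom), in Ctrl (grey) and aDll4-treated (orange) cells of each run from left to right, with the number of cells in brackets. Horizontal bars are medians and vertical bars the quartiles. The G2 and M scores span nearly the whole axis in both treatments, and the NF-kappaB scores of treated cells sit highest in runs 2 and 4.

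Promoters of NF-kappaB targets are shown because the measured members of this list stood together in block 1. The 4 printed are those that held a match, and no level of Cxcl1 is given here. The same windows were searched on both strands for GGG followed, after any 2 bases, by TTTCC or TTCCC, forms that can overlap on opposite strands. A match was present in 4 of the 7 list genes with a window (of 11) and in 3.25% of 27025 genes. The stretches end at the start site and cover chr12:55492648-55492727 (minus strand) for Nfkbia, chr19:46304657-46304736 (plus) for Nfkb2, chr5:90891145-90891244 (plus) for Cxcl1, which encodes a chemokine, and chr10:19015411-19015490 (minus) for Tnfaip3, with matches in capitals.
Nfkbia: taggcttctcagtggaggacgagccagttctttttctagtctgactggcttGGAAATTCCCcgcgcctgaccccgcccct
Nfkb2: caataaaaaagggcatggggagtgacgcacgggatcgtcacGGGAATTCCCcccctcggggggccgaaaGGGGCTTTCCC
Cxcl1: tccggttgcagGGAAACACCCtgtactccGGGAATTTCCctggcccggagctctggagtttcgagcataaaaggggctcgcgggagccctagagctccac
Tnfaip3: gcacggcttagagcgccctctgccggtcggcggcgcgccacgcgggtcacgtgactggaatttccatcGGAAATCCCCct
For the Notch targets, the RBPJ core TGGGAA was present in 2 of 6 genes with a window (of 9), Hes5 and Hey2, and in 24.1% of 27025 genes, so that nothing is drawn from it.

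Other lists moved unevenly. Of all genes, 50.7% and 43.1% were above 0 in blocks 1 and 2, and 49.3% and 54.6% below. Interferon and antigen presentation genes were above 0 in 7 of 7 measured members of block 1 (median 0.69) and in 2 of 7 of block 2 (median -0.48). Among them Irf1, an interferon regulatory factor, stood at 27 and 50.8 CPM, then at 51.8 and 1.41 CPM, and H2-K1, a class I antigen whose reads may be shared with related genes, at 11.8 and 46 CPM, then at 20.4 and 13.7 CPM. Glycolysis and hypoxia genes had a median of -0.04 in block 1 and 0.58 in block 2, with 13 of 14 above 0. Slc2a3, the glucose transporter GLUT3, stood at 260 and 203 CPM in block 1 and at 174 and 942 CPM in block 2, and Hk2, a hexokinase, was higher in both, at 13.7 and 25.8 CPM and at 10.8 and 64.8 CPM. Genes of cholesterol efflux and lysosomal lipids were below 0 in 7 and 5 of 8 members, with medians of -0.76 and -0.37, among them Lipa, the lysosomal acid lipase, at 152 and 61.2 CPM and at 174 and 129 CPM. Id1, a target of BMP signalling, stood at 59.4 and 36.2 CPM, then at 57.6 and 2.83 CPM. Amino acid supply genes had medians of 0.18 and 0.35, with Slc1a5, a glutamine transporter, at 74.3 and 128 CPM and at 61.5 and 104 CPM. Hemogenic transition factors had medians of 0.00 and 0.02, and Runx1 stayed near 0, at 0.125 and 1.09 CPM and at 0.506 and 0.177 CPM.

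**Figure D5:**
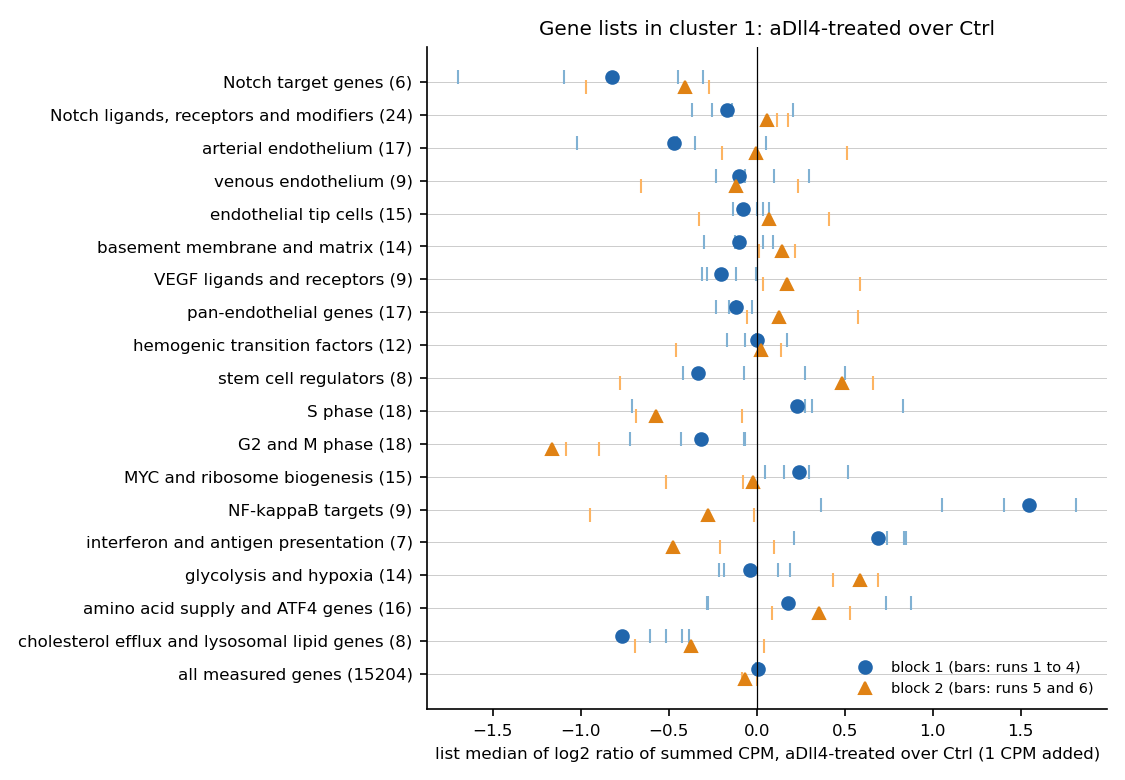
Median log2 ratio of summed CPM (1 CPM added), aDll4-treated over Ctrl cells of cluster 1, for gene lists and all measured genes, with the number of measured genes in brackets. Circles are block 1 and triangles block 2, and small bars are single runs. Notch targets and G2 and M phase genes lie below 0 in both blocks and in every run, while NF-kappaB targets lie at 1.55 in block 1 and -0.28 in block 2.

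Of the genes named by the size and evenness of their difference, 10 were higher in treated cells. Gem, a small GTPase that acts on calcium channels and the cytoskeleton, stood at 24.7 and 63.6 CPM in block 1 and at 18.9 and 261 CPM in block 2, and Ndrg1, a stress and hypoxia response gene, at 115 and 188 CPM, then at 123 and 608 CPM. Adm, which encodes adrenomedullin, had ratios of 0.05 and 1.88, at 199 and 206 CPM, then at 158 and 584 CPM. Pim3, a survival kinase, stood at 120 and 231 CPM, then at 239 and 324 CPM, and Ggps1, which makes geranylgeranyl diphosphate, at 13.2 and 42.9 CPM, then at 24.6 and 65.4 CPM. Mak16, a protein of ribosome assembly, stood at 40.2 and 76.8 CPM, then at 31.3 and 55.8 CPM. Nts, which encodes neurotensin, stood at 58 and 138 CPM, then at 42.4 and 195 CPM, and in block 2 run 6 alone gave -0.75. The ratios of Rit1, Pacsin2 and Picalm were 0.21 and 1.80, 0.49 and 1.60, and 0.66 and 0.12. Among Y-positive cells of block 1 the ratio was -0.37 for Adm, -0.10 for Rit1, 0.20 for Nts and 0.33 for Ndrg1, and the other 6 genes stayed above 0.

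The 10 that were lower included genes of adhesion, lipid transport and signalling. Tns1, a tensin that links integrins to actin, stood at 61.5 and 16.9 CPM, then at 82.9 and 33.7 CPM, with ratios below 0 in 6 of 6 runs. Its median cell held 17 and 0 CPM, then 44.6 and 0.63 CPM. Lyl1, a transcription factor of blood and endothelium, stood at 41.4 and 17.2 CPM, then at 40.3 and 16.4 CPM, also lower in 6 of 6 runs, but its ratio in block 1 was -0.27 among Y-positive cells, against -1.22 in all. Apoe, an apolipoprotein, stood at 161 and 59 CPM, then at 141 and 112 CPM, and Fzd6, a Wnt receptor, at 52.5 and 29.8 CPM, then at 39.6 and 12.8 CPM. Rgs3, a regulator of G protein signalling, stood at 92.3 and 41.5 CPM, then at 125 and 92.9 CPM, and Slc31a2, a copper transporter, at 151 and 90.1 CPM, then at 145 and 70.1 CPM. Ric8b, a chaperone of G protein subunits, stood at 56.6 and 27.3 CPM, then at 73.7 and 8.72 CPM. Cep68 and Myg1 had ratios of -0.80 and -0.29, and of -0.41 and -1.01. Klhl18 had ratios of -1.79 and -2.16, and in block 2 run 6 alone gave 0.92.

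The share of cells that fell into cluster 1 was lower among treated cells in both blocks, but not in both within 1 sex. In block 1 it was 46% of Ctrl cells (81 of 176, exact 95% interval 38.5 to 53.7%) and 41% of treated cells (73 of 178, 33.7 to 48.6%), a difference of -5.01 points with a Newcombe interval of -15.1 to 5.27, which became 2.47 points among Y-positive cells. In block 2 it was 25.4% (16 of 63, 15.3 to 37.9%) and 19.7% (13 of 66, 10.9 to 31.3%), a difference of -5.70 points (-20.0 to 8.70), which became -20.3 points among Xist-positive cells. Both intervals cover counting error alone and include 0.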

How the data were processed

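The authors deposited 1 table of raw read counts per gene and cell for 483 cells. Smart-seq2 cDNA was made from sorted cells and turned into Nextera XT libraries, per the labels' protocols, a method that marks neither strand nor molecules, so antisense or overlapping genes and near-identical copies cannot be told apart. GSNAP (2015-09-29), HTSeq (0.6.0) and build mm10 are named in the submitters' processing notes. The clusters are the submitters' labels, and doublets were not called here.

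Of 46078 genes, 45143 were named through GENCODE. Raw counts were summed over the cells of each treatment, cluster and block and scaled to CPM with Python 3.11.15, NumPy 2.4.6, pandas 2.3.3 and SciPy 1.17.1. No embryo, animal or culture is labelled, so each treatment was 1 sample and no count model or test was run. Depths of 123097 to 2172087 reads per cell of cluster 1 set the Poisson intervals, and 3 reads were the floor for a level of 0. Shares have exact (Clopper-Pearson) intervals and were repeated after thinning each cell to 100000 reads. Reads carry no molecular identifiers, so intervals cover counting error only. Summing was also run on simulated cells without differences of sex, run or embryo, so that check does not bear on such differences.

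Named genes were the 12 higher and 8 lower by difference in mean log2(CPM + 1) that agreed between blocks and clusters, 10 each way for treatment that agreed between blocks and in at least 4 runs, 6 genes that varied with Dll4, a fixed set of pathway and marker genes, and up to 4 members of each list with the largest mean difference. Outside this rule Cldn5, Ptprc, Krt18, Lcp1, Laptm5, Prdm1 and, for treatment, Plk1, Icam1, Relb and Nfkb2 and the genes whose promoters are shown were chosen after their values were seen. The members and the 33 gene lists were chosen with earlier results of these data known. Alternatives changed the weighting of cells, the added CPM, the scaling, the depth, the gene filter and the cells, 1 at a time.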

Additional observations from a re-analysis of the deposited data

Results flagged for a closer look

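Within cluster 1, among the gene lists other than sex-linked genes and among the 6 markers and 18 pathway genes always given, 3 lists and 1 gene had ratios of treated over Ctrl with one sign in every run of block 1 and the other in both runs of block 2. The difference between the blocks was not tested, and the blocks also differ in the sex of their treated cells and in depth.

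For NF-kappaB targets the median over the runs was 1.227 in block 1 and -0.4824 in block 2. For MYC and ribosome biogenesis genes it was 0.2258 and -0.2951. VEGF ligands and receptors gave -0.1986 and 0.3112, with run 1 at -0.0020, close to 0. Jag1 gave -1.503 and 0.1123.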

How the results depend on the processing

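No paired analysis was possible because the labels give no replicate that treated and Ctrl cells share and no test was run. Alternatives for the single genes and for the G2 and M phase and NF-kappaB medians were chosen after seeing the data. Of 200 alternative values for the main results, 178 moved by less than the spread between runs (counts by less than 1.5 times), and 22 moved further. Some of the 178 still changed sign. In block 2 Dll4 went from 0.10 to -0.06 within 1 sex and to -0.09 without run 6. The arterial median there went from -0.0069 to 0.06 without the highest cell of each gene. In block 1 the share of cells went from -5.01 to 2.47 points within 1 sex. For single genes 971 values moved by less than the spread, 50 moved further and 11 were counted as reversed in sign. Those 11 do not hold every change of sign. Within 1 sex the ratio in block 1 went from 0.05 to -0.37 for Adm and from 0.21 to -0.10 for Rit1. The cause was not tested for any of them. Scaling moved the median of all genes by less than 0.1. Block 2, with 16 and 13 cells of cluster 1, limits every statement that needs both blocks.

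Leaving out 1 run at a time gave, for treated over Ctrl in block 1 and then block 2, -1.28 to -1.0035 and -0.0897 to 0.74 for Dll4 (0.74 without run 5), -1.10 to -0.62 and -0.97 to -0.27 for the Notch target median (-0.97 without run 6), -0.67 to -0.28 and -0.20 to 0.51 for the arterial median (0.51 without run 5), -0.44 to -0.17 and -1.08 to -0.90 for the G2 and M phase median (-0.90 without run 6), 1.34 to 1.57 and -0.95 to -0.0164 for the NF-kappaB median (-0.95 without run 5), and -8.28 to -2.16 and -5.34 to -3.06 points for the share of cells. Without the highest cell of each gene, block 2 gave -1.54 for the G2 and M phase median, -0.96 for the NF-kappaB median and -0.11 for the Notch target median (-0.41 with it). Within 1 sex, block 2 gave -1.58 for the G2 and M phase median and -20.3 points for the share of cells, and block 1 gave 2.47 points.

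The count of 461 genes higher in treated cells became 815 within 1 sex, 702 with 0.1 CPM added, 120 with 10 CPM added and 256 among genes read in 20% of cells, and 432 to 547 without 1 run. Within 1 sex 309 of the 461 genes (67%) were called again, and 393 of the 778 lower ones (50.5%). The count of 778 became 210 with 10 CPM added and 443 with the 20% filter, and 751 to 938 without 1 run. The 620 genes higher in cluster 1 became 947 without the highest cell, 233 with 10 CPM added and 361 with the 20% filter, and 593 to 706 without 1 run. The 188 lower genes became 78, 77 with 10 CPM added, 329 among treated cells and 99 to 207 without 1 run (99 without run 5). Among treated cells 95 of the 620 genes (15.3%) and 43 of the 188 (22.9%) were called again.

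Ratios of treated over Ctrl changed sign for Hey2 in block 1 (-0.11 without run 2, -0.0079 without run 3, up to 1.94 without run 4). In block 2, without 1 run, they spanned -2.64 to 4.60 for Hey2 and -2.82 to 0.15 for Efnb2, the sign changing without run 6. They spanned -0.16 to 2.04 for Hey1, -0.75 to 7.66 for Nts, -4.86 to 0.92 for Klhl18, -1.40 to 1.70 for Mycn and -2.32 to 4.66 for Jag2, the sign changing without run 5. They changed sign as well for Jag2 (0.057) and Mecom (0.062) without the highest cell.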
